A study of Homo sapiens with 30 samples.

Results

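Hepatocytes make most of the proteins dissolved in blood plasma. The 53 genes described here code for such secreted proteins and were chosen by name from their known products, with apolipoproteins left out. The choice was made with earlier results of these data known, so member counts set against all genes are not independent of the data. The genes are 53 of the 60675 gene rows in the table of HepG2 expression values. All 53 were among the 16083 genes with enough reads to be tested. By role they fall into 17 carrier and transport proteins led by albumin, 11 genes of the serpin family (protease inhibitors, hormone carriers and angiotensinogen), 4 fibrinogen genes, 10 clotting and fibrinolysis genes, 7 complement genes and 4 heavy chains of the inter-alpha-trypsin inhibitors. As background, transcription of these genes in liver depends on a small set of factors, among them the HNF1, HNF4, FOXA and CEBP families. In inflammation the acute-phase response, driven by interleukin-6 through STAT3, raises some of the products (haptoglobin, fibrinogen, SERPINA3) and lowers others (albumin, transthyretin), which are called negative acute-phase proteins. The proteins leave the cell through the endoplasmic reticulum and the Golgi, so mRNA levels are not secretion rates, which were not measured.

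HepG2 is a human hepatocellular carcinoma cell line. The cells were treated for 24 h with an ethanol extract of 1 of 4 herbal formulas given as tonics in Korean medicine, and RNA was sequenced in 30 libraries of 13 groups. Palmul-tang and Sibjeondaebo-tang were each given at a high dose of 500 µg/mL, a medium dose of 100 µg/mL and a low dose of 20 µg/mL, with 3 libraries a dose; Samul-tang was given at the same doses with 2 libraries each, and Sagunja-tang at the same doses with 1 library each. The vehicle group of 3 libraries received 0.1% DMSO per the sample labels, which differs from the 2% of the series text, and no library without DMSO or extract was used here. As background, the herbs of Palmul-tang are those of Sagunja-tang joined with those of Samul-tang. Astragalus root and cinnamon bark are the additions that make Sibjeondaebo-tang. All libraries come from 1 cell line, and nothing in the labels says that replicates are separate cultures, so p-values measure the spread between these libraries, which may be technical. The names of the data columns carry the prefix E1 for vehicle, 14 for Samul-tang and Sagunja-tang and 15 for Palmul-tang and Sibjeondaebo-tang. A difference from vehicle and a difference between those library sets cannot be told apart, whereas the high and low doses of a formula lie within 1 set.

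Libraries held between 21570416 and 37707232 expected counts. The hepatocyte factor HNF4A was measured at 274 to 351 CPM, a count scaled to library size, and APOB at 11719.8 to 17559 CPM, so liver genes were present in every library. Markers of other cell types were not all at 0. Of 6 leukocyte markers MARCO was at 0 in all 30 libraries and PTPRC in 29, but CD68 read 48.8 to 81.7 CPM and CD14 2.34 to 3.99 CPM in every library. Of the erythroid markers HBB was at 0 in all 30 and HBA1 read 0.634 to 1.77 CPM. The 8 fibroblast markers summed to between 3.98 and 7.78 CPM in 29 libraries and to 29.6 CPM in Sibjeondaebo-tang low replicate 3, where COL1A1 reached 8.32 CPM. The share of counts from mitochondrial genes was 12.4 to 14.5% in vehicle, 17.2 to 19.4% in Sibjeondaebo-tang high and 11.2 to 12.9% in Samul-tang medium, and its part in the results was not tested. Samul-tang medium replicate 3, Sibjeondaebo-tang low replicate 3 and vehicle replicate 2 were the libraries doubted. Removing all 3 was a choice made after seeing the data. In the average of high against low dose of the 3 replicated formulas it gave 36 called members in place of 34. For Sibjeondaebo-tang low against vehicle it gave 13 in place of 19. Samul-tang medium was then left with replicate 2 alone. That replicate had the largest member sum of all libraries, 74446 CPM against 62678 in replicate 3. It also had the lowest summed hepatocyte markers of all libraries, 18590.6 CPM against 21620.7 in replicate 3.

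The start regions of 5 members are shown because 4 of these genes fell at the high dose of all 3 replicated formulas (ALB, KNG1, SERPINA7 and CFB) and AMBP rose in Palmul-tang and Sibjeondaebo-tang. Each sequence is the 250 bases before the RefSeq transcription start on GRCh38.p14, 5′ to 3′ on the gene's strand: ALB at chr4:73404037-73404286, + strand, KNG1 at chr3:186717109-186717358, + strand, SERPINA7 at chrX:106038728-106038977, - strand, CFB at chr6:31945845-31946094, + strand and AMBP at chr9:114078301-114078550, - strand. Capitals mark letters that match any of 7 short motifs, searched on both strands: HNF1 as GTTAAT, CEBP as TTGCNNAA, FOXA as TGTTTAC, HNF4 as CAAAGTC, STAT3 as TTCNNNGAA, the antioxidant response element as TGACNNNGC and the TATA box as TATAAA.
ALB: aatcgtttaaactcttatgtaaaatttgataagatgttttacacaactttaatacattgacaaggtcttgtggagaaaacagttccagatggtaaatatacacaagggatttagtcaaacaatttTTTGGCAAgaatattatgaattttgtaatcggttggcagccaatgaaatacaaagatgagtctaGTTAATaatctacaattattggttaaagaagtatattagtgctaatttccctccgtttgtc
KNG1: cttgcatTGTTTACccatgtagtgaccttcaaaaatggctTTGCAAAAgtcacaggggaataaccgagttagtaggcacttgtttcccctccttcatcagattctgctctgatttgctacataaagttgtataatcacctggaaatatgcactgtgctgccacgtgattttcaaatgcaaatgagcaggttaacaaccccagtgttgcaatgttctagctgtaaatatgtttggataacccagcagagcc
SERPINA7: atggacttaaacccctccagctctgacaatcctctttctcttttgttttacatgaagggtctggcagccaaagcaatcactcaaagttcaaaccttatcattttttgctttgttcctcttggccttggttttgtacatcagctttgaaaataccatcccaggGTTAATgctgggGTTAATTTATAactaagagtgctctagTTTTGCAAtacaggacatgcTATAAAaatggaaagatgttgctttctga
CFB: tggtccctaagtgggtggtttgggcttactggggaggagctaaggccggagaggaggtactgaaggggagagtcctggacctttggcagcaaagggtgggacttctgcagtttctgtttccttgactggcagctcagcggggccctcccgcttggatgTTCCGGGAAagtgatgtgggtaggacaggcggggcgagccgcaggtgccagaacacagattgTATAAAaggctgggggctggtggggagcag
AMBP: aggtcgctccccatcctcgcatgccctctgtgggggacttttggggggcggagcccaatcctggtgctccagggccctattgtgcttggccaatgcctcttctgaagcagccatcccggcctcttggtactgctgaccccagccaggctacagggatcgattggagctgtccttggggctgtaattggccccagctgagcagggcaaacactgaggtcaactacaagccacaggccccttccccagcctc
ALB held an HNF1 match 61 bases before the start and a CEBP match at 125, KNG1 a CEBP match at 210 and a FOXA match at 243, and CFB a STAT3 match at 92 and a TATA box at 30. SERPINA7 held HNF1 matches at 88 and 76, of which the nearer overlaps a TATA box match at 71, besides a CEBP match at 49 and a TATA box at 29. AMBP held no match to the 7 motifs in this window. RefSeq windows were found for 39 of the 53 members. Of these, 30.8% held the STAT3 motif against 6.78% of all 27305 promoters, 23.1% the CEBP motif against 9.13%, and 20.5% the HNF1 motif against 6.22%. The shares were 17.9% against 11.1% for the TATA box, 17.9% against 11% for the antioxidant response element, 7.69% against 2.98% for FOXA and 5.13% against 2.94% for HNF4. The CEBP motif was found in 9 of the 27 windows of members that fell with dose (described next) and in 0 of the 12 others, the STAT3 motif in 10 of 27 and 2 of 12, and the HNF1 motif in 7 of 27 and 1 of 12. FOXA was found in 3 of 27 and 0 of 12, HNF4 in 2 of 27 and 0 of 12, the antioxidant response element in 5 of 27 and 2 of 12, and the TATA box in 4 of 27 and 3 of 12. These matches describe letters in the windows, and no test of binding was made. GENCODE gene bounds start further upstream than the RefSeq start in these 5 genes, so part of a window can be transcribed.

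Levels in vehicle differed widely among the genes. CPM per kilobase of annotated transcript were highest for AFP, the fetal counterpart of albumin, at 5504, followed by ALB at 5082, the elastase inhibitor SERPINA1 at 4093, the fibrinogen gamma chain FGG at 1172 and the carrier AHSG at 1061. The lowest were C8G at 1.46, the vitamin D carrier GC at 0.872, ITIH4 at 0.469 and HRG at 0.297. TF, the iron carrier transferrin, was left out of this order because its annotated transcript of 20602 bases spreads its level of 4580.2 CPM over a length that is not usual for it. The 53 genes together took 6.35 to 6.44% of all counts in vehicle, 6.50 to 6.89% at the low doses of the 3 replicated formulas and 5.86 to 6.19% at their high doses. Samul-tang medium gave 6.67 and 7.56%, and the single libraries of Sagunja-tang went from 6.75% at low through 6.19% at medium to 5.55% at high. The low-dose and high-dose shares did not overlap in any of these formulas. The position against vehicle depended on the scaling. On the TMM-scaled CPM used for all tests the members summed to 60018 to 60898 in vehicle, 58947 to 61751 in Palmul-tang high, 60009 to 63091 in Samul-tang high and 61291 to 63191 in Sibjeondaebo-tang high, so the first pair overlapped vehicle and the last lay above it. The low-dose sums of 65347 to 68693 lay above the high-dose sums and above vehicle on this scale too.

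**Figure D1:**
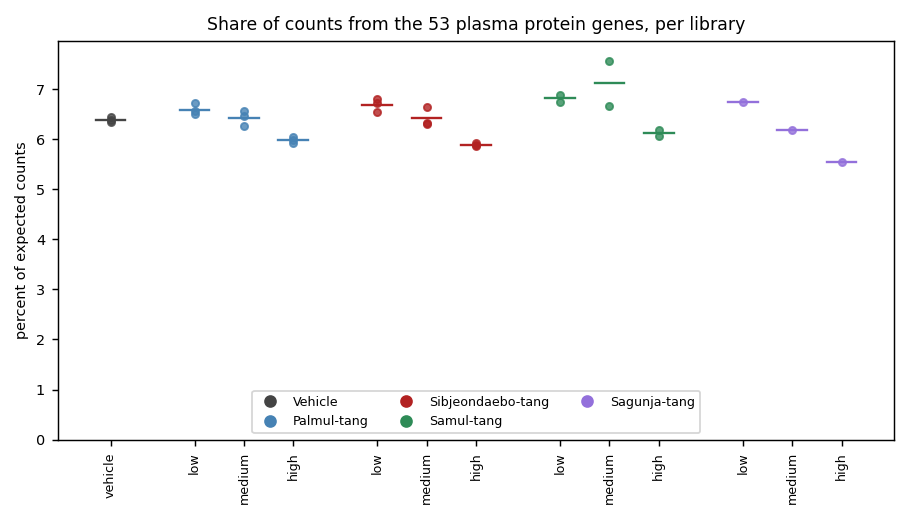
Percent of all expected counts that came from the 53 genes in each of the 30 libraries (y axis), by formula and dose (x axis); points are libraries and bars are group means. The high-dose libraries of the 3 replicated formulas sit between 5.86 and 6.19%, below all low-dose libraries; against vehicle this order does not hold for summed TMM-scaled CPM.

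Between the high and the low dose, 32 of the 53 genes fell and 2 rose when the difference was averaged over Palmul-tang, Sibjeondaebo-tang and Samul-tang. The test was edgeR's quasi-likelihood test with Benjamini-Hochberg adjustment over all 16083 genes at a threshold of 0.05, which called 10.6% of all genes lower and 11.8% higher (22.4% in either direction) in this comparison. The median log2 fold change was -0.13 for the members and 0.00 for all genes, and 47 of 53 members had a negative value. A CPM value is a share of the RNA sequenced from a culture, so fewer cells of a kind and less RNA per cell cannot be told apart. In the 3 replicated formulas summed bile duct and leukocyte markers were higher at the high dose, with overlap between low and high in Palmul-tang alone. In the single libraries of Sagunja-tang the bile duct sum went from 328.1 CPM at low to 311.9 at high, and the leukocyte sum from 62.8 to 84.3. The 4 bile duct markers read 317.4 to 346.5 CPM at low and 341.5 to 360.0 at high in Palmul-tang. In Sibjeondaebo-tang they read 324.6 to 331.4 and 377.2 to 400.4, and in Samul-tang 322.5 to 329.2 and 336.4 to 343.3. Vehicle read 294.6 to 294.8. KRT7 was at 0 in 16 libraries, whereas KRT19, EPCAM and SOX9 were read in every library of this cell line, vehicle included. The leukocyte markers read 64.8 to 73.5 and 72.1 to 84.0 in Palmul-tang, 63.3 to 66.1 and 67.7 to 83.1 in Sibjeondaebo-tang, and 58.5 to 61.2 and 64.4 to 69.1 in Samul-tang, against 53.4 to 59.1 in vehicle, nearly all of it CD68. Summed hepatocyte markers read 21977.5 to 22925.0 at low and 19919.2 to 21037.1 at high in Palmul-tang. They read 22486.3 to 22720.5 and 22478.2 to 22858.4 in Sibjeondaebo-tang, and 23133.8 to 23196.2 and 20470.5 to 21242.6 in Samul-tang. Low and high thus overlapped in Sibjeondaebo-tang alone. The part of these marker sums in the results was not tested. Of all 53 members, called or not, 37 lay within 0.2 on the log2 scale, and the called falls ran from -0.08 for RBP4 to -0.94 for KNG1. Carriers gave 12 lower and 1 higher of 17, serpins 6 lower and 1 higher of 11, fibrinogen 3 lower of 4, clotting genes 5 lower of 10, complement 4 lower of 7 and inter-alpha-trypsin heavy chains 2 lower of 4. The calls of AHSG, FGG, RBP4, PROC and MASP2 were lost when single libraries were left out (adjusted p up to 0.108 for AHSG and up to 0.23 for FGG), and that of HRG was lost with DESeq2 (adjusted p = 0.0586).

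**Figure D2:**
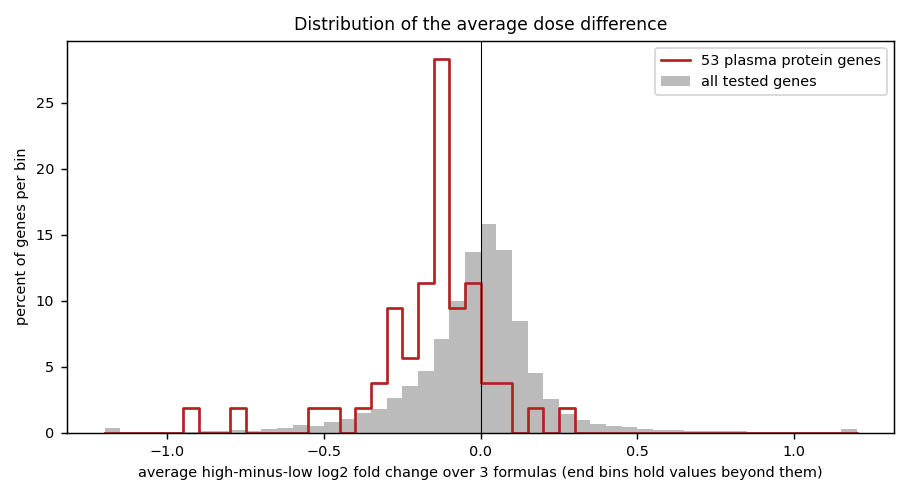
Histogram of the average high-minus-low log2 fold change over 3 formulas (x axis) as percent of genes per bin (y axis), for the 53 genes (line) and all 16083 tested genes (filled). The members centre on -0.13 and all genes on 0.00, and the end bins hold values beyond the axis.

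Taken by formula, no library is shared between the 3 comparisons. Palmul-tang gave 23 lower and 2 higher members, against 3.03% and 3.75% of all genes (6.78% in either direction), with a median log2 fold change of -0.17. Sibjeondaebo-tang gave 13 lower and 2 higher, against 9.44% and 10.4% (19.8% in either direction), with a median of -0.09. Samul-tang gave 8 lower against 0.715% of all genes and 0 higher against 0.709% (1.42% in either direction), with a median of -0.14. None of the Samul-tang members reached an unadjusted p under 0.05 in the higher direction, and DESeq2 also gave 0. ALB, SERPINA7, KNG1, C5, CFB, ITIH1 and ITIH3 were called lower in all 3 formulas, which is 7 of 53 members against 0.497% of all genes, and 38 of 53 had a negative value in all 3 against 22.5%. All high-dose libraries lay below all low-dose libraries in 30 members for Palmul-tang (11.5% of all genes), 30 for Sibjeondaebo-tang (18.8%) and 36 for Samul-tang (21%). Palmul-tang counts fell to 16 without Palmul-tang high replicate 2, and Samul-tang counts to 3 or 4 without any 1 of its 4 libraries, where the lone library is assumed to vary like the other groups. Other settings raised the counts: Samul-tang gave 15 with a GC and length offset, chosen after seeing the data, and Sibjeondaebo-tang gave 24 with its groups fitted alone. The spread of these values is drawn in the plot of fold changes by gene.

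**Figure D3:**
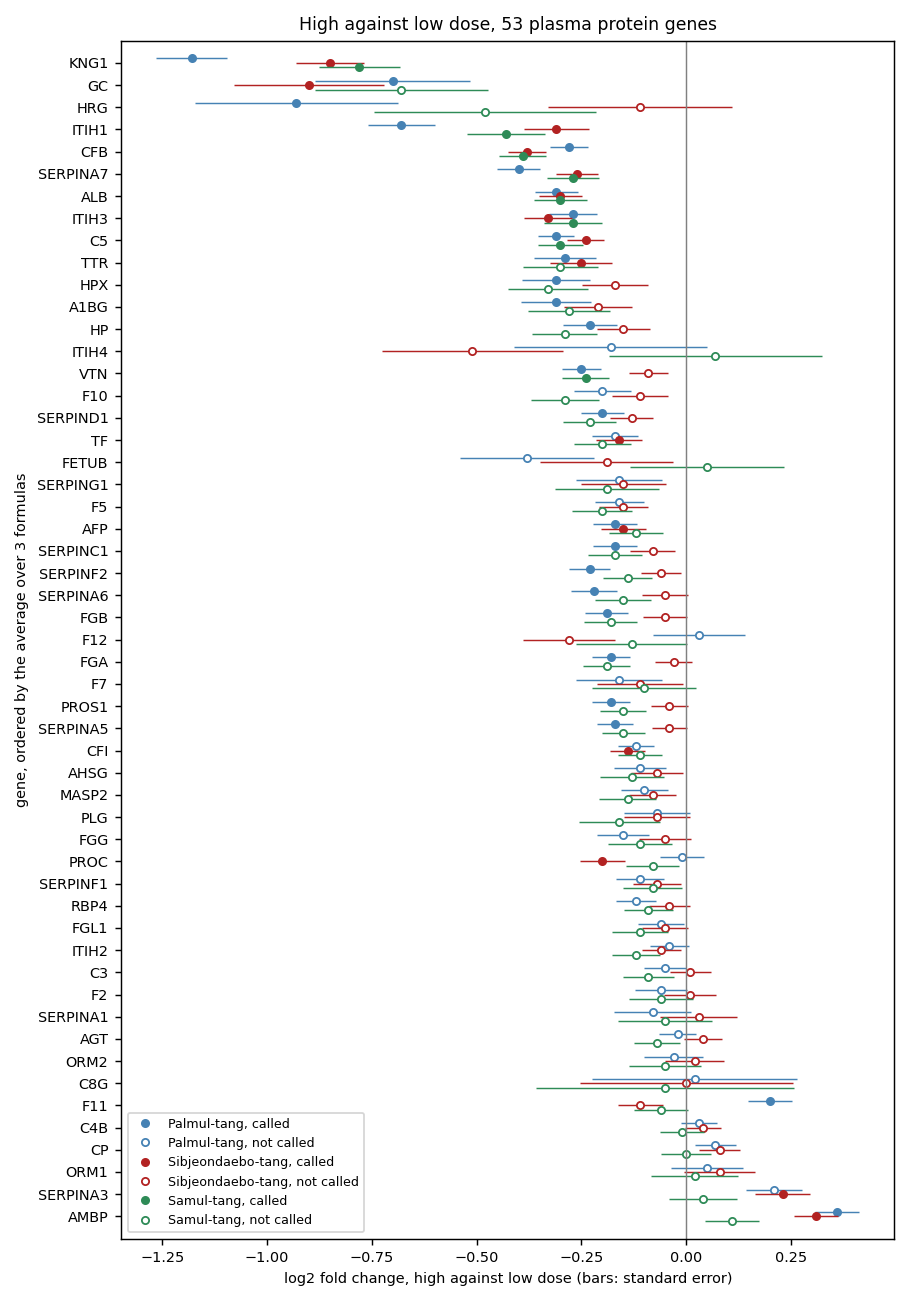
Log2 fold change of the high against the low dose (x axis) for each of the 53 genes (y axis, ordered by the average), by formula. Points are edgeR estimates, bars their standard errors, filled points passed the adjusted p threshold of 0.05; KNG1, HRG and GC stand furthest to the left and AMBP furthest to the right.

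Among the carriers, ALB (ENSG00000163631, chr4:73397114-73421412, GENCODE 29) fell by nearly the same amount in each formula. Albumin carries fatty acids, drugs and hormones and sets the osmotic pressure of plasma. In Palmul-tang the libraries read 10559.7, 11172 and 10825 CPM at low, 10146, 9989 and 9501 at medium and 8879.5, 8885 and 8419 at high. In Sibjeondaebo-tang they read 11558, 10846 and 11145 at low, 10406, 9844 and 9952 at medium and 8858, 8975 and 9118 at high. In Samul-tang they read 11662 and 11478 at low, 11692 and 10327 at medium and 9509 and 9287 at high. High and low did not overlap in any of the 3, and in Palmul-tang and Sibjeondaebo-tang the medium libraries lay in between. The log2 fold changes were -0.31 (SE 0.0509, adjusted p = 8.56e-05), -0.30 (SE 0.0509, adjusted p = 5.86e-05) and -0.30 (SE 0.0623, adjusted p = 0.00596), in that order, a fall by 19% on average. The Samul-tang call was lost without any 1 of its 4 libraries (adjusted p between 0.0639 and 0.132) and with its groups fitted alone (0.0755). Vehicle gave 11154.5, 11328 and 12019.8 CPM, so the low-dose libraries of all 3 formulas overlapped vehicle and the high-dose libraries lay below it.

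**Figure D4:**
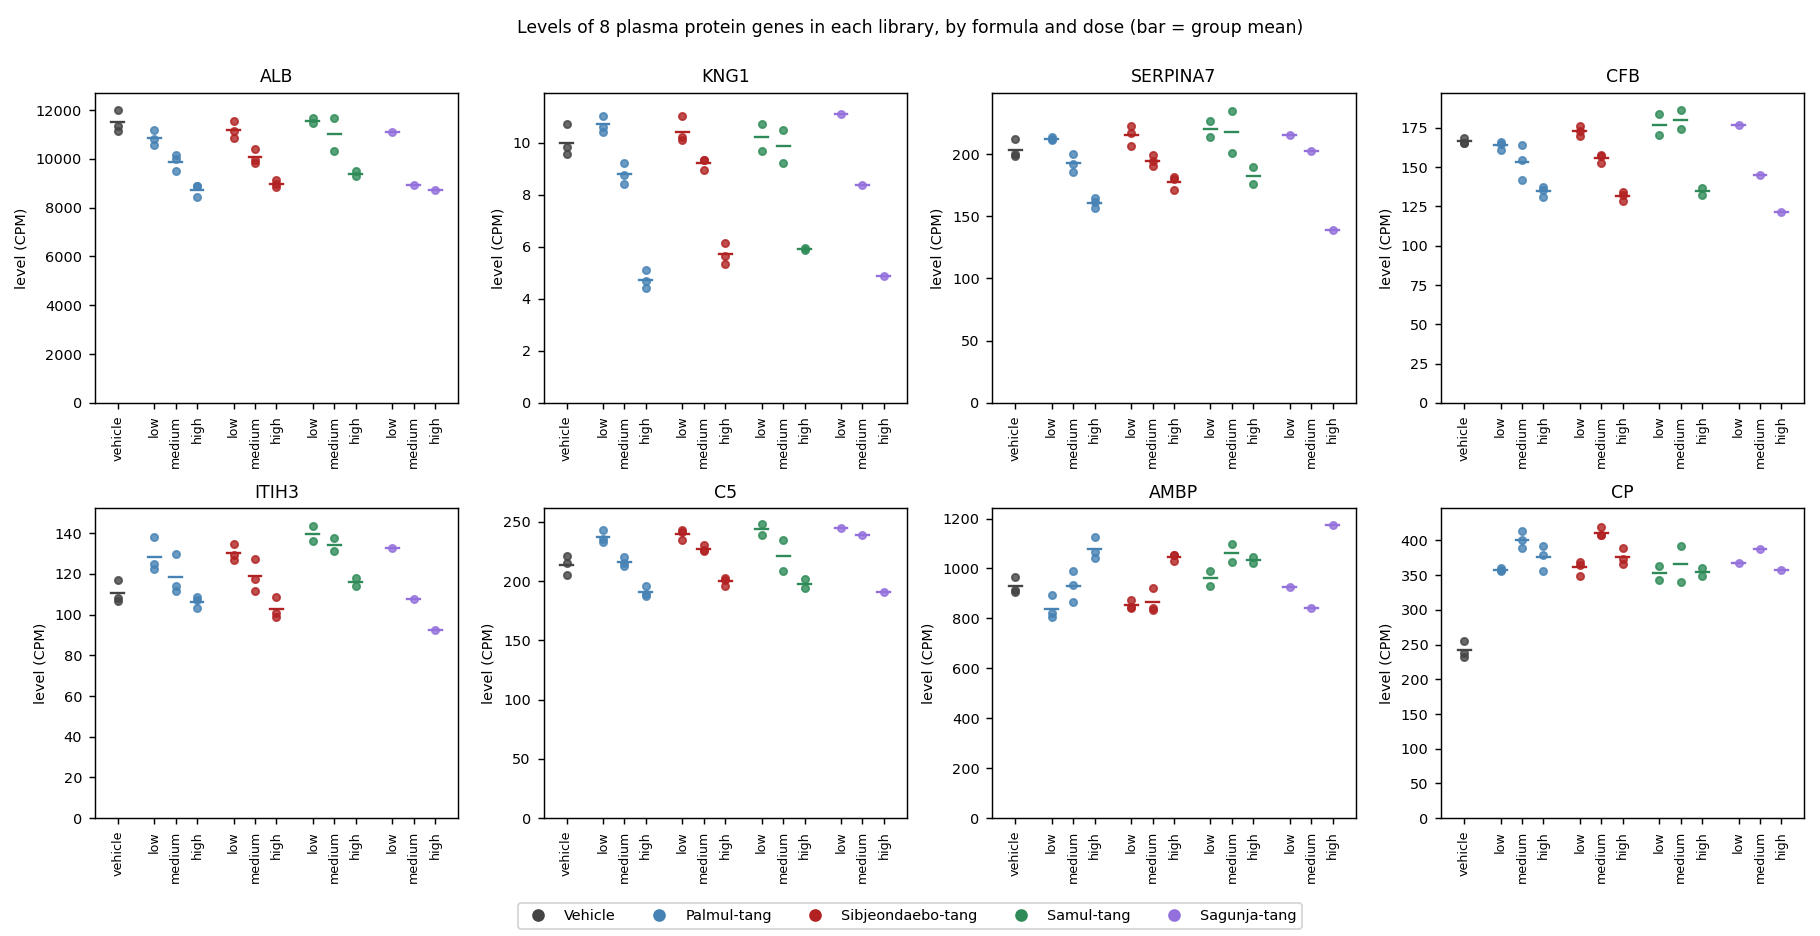
Level in CPM (y axes, from 0) of 8 genes in each of the 30 libraries, by formula and dose (x axes); points are libraries and bars are group means. ALB, KNG1, SERPINA7, CFB, ITIH3 and C5 sit lower at the high than at the low dose of the 3 replicated formulas, AMBP sits higher at the high dose of Palmul-tang and Sibjeondaebo-tang, and CP lies above vehicle at every dose.

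AFP (ENSG00000081051, chr4:73431138-73456174), the neighbour of ALB on chromosome 4, fell less. Its low-dose libraries read 15639.6, 15021 and 15057 CPM in Palmul-tang, 15132.5, 15078.5 and 15639 in Sibjeondaebo-tang and 15515 and 14678 in Samul-tang. Its high-dose libraries read 13144, 13981 and 13424 in Palmul-tang, 13866.5, 13468 and 13582.5 in Sibjeondaebo-tang and 14372 and 13380.2 in Samul-tang. Highs and lows were apart in all 3 formulas, and the average log2 fold change was -0.15 (SE 0.0332, adjusted p = 0.00138). TTR, which carries thyroid hormone and retinol-binding protein, read 179.7, 205 and 204 CPM at low and 159.5, 160.3 and 159.7 at high in Palmul-tang, 183.5, 203 and 189 at low and 167, 147 and 166 at high in Sibjeondaebo-tang, and 207 and 202 at low and 168 and 163 at high in Samul-tang. Its high-dose libraries were all lower, with an average of -0.28 (SE 0.046, adjusted p = 5.11e-05), and Samul-tang alone gave -0.30 without passing the threshold.

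GC, the vitamin D carrier, gave the second largest fall of all members but at a low level. Palmul-tang read 1.78, 1.75 and 1.87 CPM at low and 1.27, 0.763 and 1.3 at high, Sibjeondaebo-tang 2, 2.24 and 2.16 at low and 1.03, 1.18 and 1.15 at high, and Samul-tang 2.46 and 1.9 at low and 1.3 and 1.41 at high. The groups did not overlap in any formula, and the lowest library of all held 22 counts, so single values are imprecise. The average log2 fold change was -0.76 (SE 0.11, adjusted p = 4.07e-06), and the Palmul-tang call (adjusted p = 0.0156) was lost without Palmul-tang high replicate 2 (0.15) or low replicate 3 (0.0622) and with the groups fitted alone (0.057). HPX, which binds free heme, fell on average (-0.27, SE 0.0493, adjusted p = 9.98e-05), as did A1BG, a plasma glycoprotein (-0.27, SE 0.0507, adjusted p = 0.000193). HP, the haemoglobin scavenger, gave -0.22, VTN (vitronectin, an adhesion and complement regulator) -0.20 and TF -0.18, and all 3 passed. HRG read 0.347 to 0.915 CPM over all libraries, with 10 counts in the lowest, and its average of -0.51 was made up of -0.93 in Palmul-tang, -0.11 in Sibjeondaebo-tang and -0.48 in Samul-tang.

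AMBP rose. It codes for a precursor that is cut into alpha-1-microglobulin, a heme-binding lipocalin, and bikunin, the light chain of the inter-alpha-trypsin inhibitors. Palmul-tang read 821, 892 and 804 CPM at the low dose and 1128, 1064 and 1040.5 at the high dose, and Sibjeondaebo-tang 873, 843 and 845 at low and 1054, 1054 and 1028 at high. Samul-tang read 990.1 and 930.2 at low and 1020.0 and 1046 at high. The groups were apart in all 3 formulas, with log2 fold changes of 0.36 (SE 0.0531, adjusted p = 1.57e-05) and 0.31 (SE 0.0531, adjusted p = 7.02e-05) in the first pair and 0.11 (SE 0.0649, adjusted p = 0.654) in Samul-tang, which did not pass. The other genes of the carrier group did not pass in the average: CP gave 0.05, FETUB -0.17, ORM1 0.05 and ORM2 -0.02, where reads of ORM1 and ORM2 are shared by estimate because the genes are near-identical. RBP4 and AHSG passed at -0.08 and -0.11, values that single libraries decide.

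Of the serpins, SERPINA7 (thyroxine-binding globulin, ENSG00000123561, chrX:106032442-106038738) fell in every formula. Palmul-tang read 214, 212 and 211 CPM at low and 165, 161 and 157 at high, Sibjeondaebo-tang 206, 217 and 222 at low and 179.7, 171 and 181.5 at high, and Samul-tang 226 and 214 at low and 189.7 and 176 at high. High and low were apart in each, with -0.40 (SE 0.0503, adjusted p = 1.38e-06), -0.26 (SE 0.05, adjusted p = 0.000262) and -0.27 (SE 0.0611, adjusted p = 0.015). Without Samul-tang low replicate 2, high replicate 3 or low replicate 3 the Samul-tang call was lost, at an adjusted p of 0.304, 0.333 and 0.0567. SERPIND1 (heparin cofactor II) fell on average with -0.19, SERPINF2 (the plasmin inhibitor) with -0.14, SERPINC1 (antithrombin) with -0.14, SERPINA6 (the corticosteroid carrier) with -0.14 and SERPINA5 (the protein C inhibitor) with -0.12 on the log2 scale. SERPINA1, the most abundant serpin, read 14619, 13166 and 13088 CPM at low and 12254, 14068 and 12274 at high in Palmul-tang, 13578, 13418 and 13970.5 at low and 13081.5, 13452.5 and 14954 at high in Sibjeondaebo-tang, and 12872 and 13909 at low and 13599 and 12222 at high in Samul-tang. These ranges overlapped in all 3 formulas, and the average of -0.03 (SE 0.0573, adjusted p = 0.744) did not pass. AGT, the angiotensin precursor, gave -0.02, SERPING1, the C1 inhibitor, -0.17 and SERPINF1 -0.09, and none of these passed.

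SERPINA3, an inhibitor of chymotrypsin-like proteases and an acute-phase protein, was the other member that rose. Palmul-tang read 193, 204 and 209 CPM at low and 232, 242 and 224 at high, Sibjeondaebo-tang 221, 209 and 209 at low and 240.0, 234 and 267 at high, and Samul-tang 223.5 and 218 at low and 235 and 220.4 at high. The doses were apart in Palmul-tang and Sibjeondaebo-tang and overlapped in Samul-tang. The average was 0.16 (SE 0.0414, adjusted p = 0.00518), and the Sibjeondaebo-tang call (0.23, SE 0.0663, adjusted p = 0.0139) was lost without low replicate 2 (adjusted p = 0.0579), high replicate 3 (0.179) or low replicate 3 (0.055). The bounds of SERPINA3 and SERPINA5 overlap those of the annotated gene AL049839.2 on the same strand. A mean of 15837.6 counts a library was assigned to AL049839.2, more than to SERPINA3 itself (6463.2). SERPINA5 also overlaps SERPINA4 on the same strand (mean 1071.7 counts). AL049839.2 also rose, by 0.21, so how reads were divided among these genes can bear on their values and was not tested.

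The fibrinogen chains FGA, FGB and FGG lie side by side on chromosome 4 and code for the subunits of the clot protein. FGB read 667, 674 and 685 CPM at low and 567.5, 625 and 586 at high in Palmul-tang, 677, 668 and 744 at low and 633.5, 657 and 702 at high in Sibjeondaebo-tang, and 697 and 675 at low and 618 and 593 at high in Samul-tang. The doses were apart in Palmul-tang and Samul-tang and overlapped in Sibjeondaebo-tang. The average log2 fold changes were -0.14 (SE 0.0324, adjusted p = 0.00182) for FGB, -0.13 (SE 0.0281, adjusted p = 0.000719) for FGA and -0.10 (SE 0.0384, adjusted p = 0.0497) for FGG. FGL1, a fibrinogen-like hepatokine, gave -0.07 and did not pass.

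KNG1 (ENSG00000113889, chr3:186717276-186744410) gave the largest fall of all members in the average. It codes for kininogen, the source of bradykinin and a cofactor of the contact pathway of clotting. Palmul-tang libraries read 10.4, 10.6 and 11 CPM at low, 8.75, 8.4 and 9.2 at medium and 4.4, 4.68 and 5.09 at high. Sibjeondaebo-tang libraries read 10.1, 10.2 and 11 at low, 8.95, 9.33 and 9.33 at medium and 5.34, 5.65 and 6.13 at high. Samul-tang libraries read 10.7 and 9.68 at low, 10.5 and 9.23 at medium and 5.87 and 5.96 at high. The high-dose libraries stood well below the rest in each formula, and the low-dose libraries overlapped those of vehicle, which read 10.7, 9.82 and 9.55. The falls were -1.18 (SE 0.0843, adjusted p = 1.49e-11), -0.85 (SE 0.081, adjusted p = 2.98e-09) and -0.78 (SE 0.0966, adjusted p = 4.24e-06), and all 3 calls were kept under every alternative tried. KNG1 lies with AHSG, FETUB and HRG on chromosome 3, and the averages of these neighbours were -0.11, -0.17 and -0.51.

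Other clotting genes moved less. F10 fell on average (-0.20, SE 0.0419, adjusted p = 0.000555), as did F5, the cofactor of factor X (-0.17, SE 0.0364, adjusted p = 0.000935), PROS1 (protein S, -0.12) and PROC (protein C, -0.09), the last depending on single libraries. F2 (prothrombin) gave -0.04, F7 -0.12, PLG (plasminogen) -0.10 and F12 -0.13 without passing, and the F12 row overlaps GRK6 on the opposite strand. F11, the contact-pathway factor XI, differed between formulas: it read 57, 57.8 and 57.2 CPM at the low dose and 60.6, 68.7 and 68.3 at the high dose of Palmul-tang, and 57.7, 57.3 and 59.9 at low and 51.6, 52.6 and 56.4 at high in Sibjeondaebo-tang. High lay above low in the first and below it in the second. The log2 fold changes were 0.20 (SE 0.0536, adjusted p = 0.0178) and -0.11 (SE 0.0537, adjusted p = 0.169), the first lost without 5 of the 6 Palmul-tang libraries in turn (adjusted p 0.0511 to 0.119), and the difference between them was -0.31 (SE 0.0759, adjusted p = 0.0224). It was the only member of 53 called in the comparison of these formulas' dose responses, where 1.95% of all genes were called lower and 0.0497% higher, and 9 members had a positive difference at an unadjusted p under 0.05 although DESeq2 gave 0 calls in that direction. The F11 call was lost without Palmul-tang high replicate 2 (adjusted p = 0.0555), Palmul-tang low replicate 3 (0.0535), Sibjeondaebo-tang high replicate 2 (0.0577) or Sibjeondaebo-tang low replicate 3 (0.0709). For Samul-tang against Palmul-tang and Samul-tang against Sibjeondaebo-tang 0 members were called, with 4 and 3 at an unadjusted p under 0.05 and 0 by DESeq2, against 0.0124% and 1.68% of all genes.

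In complement, C5 and CFB fell in all 3 formulas. C5 (ENSG00000106804, chr9:120952335-121050276) starts the membrane attack complex, and read 233, 235 and 243 CPM at low and 187, 189 and 196 at high in Palmul-tang, 234, 241 and 243 at low and 196, 201 and 203 at high in Sibjeondaebo-tang, and 248 and 239 at low and 194 and 202 at high in Samul-tang. CFB (ENSG00000243649, chr6:31945650-31952084) supplies the protease of the alternative pathway, and read 166, 165 and 161 at low and 131, 135 and 137 at high in Palmul-tang, 170.0, 173 and 176 at low and 134, 128 and 132.5 at high in Sibjeondaebo-tang, and 184 and 170.2 at low and 137 and 132 at high in Samul-tang. Neither gene overlapped between doses in any formula, and for C5 the low-dose libraries lay above vehicle (215, 205 and 221) and the high-dose libraries below it. C5 gave -0.31 (SE 0.0435, adjusted p = 8.04e-06), -0.24 (SE 0.0434, adjusted p = 0.000112) and -0.30 (SE 0.053, adjusted p = 0.00105), and CFB -0.28 (SE 0.0458, adjusted p = 7.83e-05), -0.38 (SE 0.0456, adjusted p = 2.49e-07) and -0.39 (SE 0.0556, adjusted p = 4.13e-05). The Samul-tang call of C5 was lost without Samul-tang high replicate 2 (adjusted p = 0.0515). The bounds of CFB overlap those of C2 on the same strand, and C2 gave an average of -0.08. CFI, the protease that inactivates C3b, fell on average with -0.12 and MASP2, a protease of the lectin pathway, with -0.10. C3, the most abundant complement gene of these, gave -0.04 and C4B, whose reads are shared with the near-identical C4A, gave 0.02. C8G, at 22 counts in its lowest library, gave -0.01.

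Among the inter-alpha-trypsin heavy chains, ITIH1, ITIH3 and ITIH4 lie next to each other on chromosome 3. ITIH1 (ENSG00000055957, chr3:52777592-52792068) read 14.6, 13.8 and 14.5 CPM at low and 9.38, 7.94 and 9.35 at high in Palmul-tang, 13, 12.9 and 13.9 at low and 10.6, 9.6 and 11.6 at high in Sibjeondaebo-tang, and 14.1 and 14.5 at low and 9.98 and 11.3 at high in Samul-tang. ITIH3 (ENSG00000162267, chr3:52794768-52809009) read 138, 125 and 122 at low and 109, 103 and 107 at high in Palmul-tang, 129, 127 and 135 at low and 108, 101 and 98.8 at high in Sibjeondaebo-tang, and 144 and 136 at low and 118 and 114 at high in Samul-tang. High lay below low for both genes in every formula. ITIH1 gave -0.68 (SE 0.0804, adjusted p = 4.1e-07), -0.31 (SE 0.0782, adjusted p = 0.00438) and -0.43 (SE 0.0932, adjusted p = 0.0108), and ITIH3 gave -0.27 (SE 0.058, adjusted p = 0.00297), -0.33 (SE 0.0578, adjusted p = 9.26e-05) and -0.27 (SE 0.0701, adjusted p = 0.044). The Samul-tang call of ITIH3 was lost without any 1 of its libraries (adjusted p up to 0.422), that of ITIH1 without high replicate 2 (0.318), low replicate 2 (0.0699) or low replicate 3 (0.167), and the Sibjeondaebo-tang call of ITIH1 without high replicate 2 (0.0509). ITIH2 on chromosome 10, the most abundant of the chains at 1809 CPM in vehicle, gave -0.07, and ITIH4 gave -0.21 at 1.57 CPM in vehicle, and neither passed.

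The 3 single libraries of Sagunja-tang carry no test. Of the 53 members, 48 were lower at the high than at the low dose, against 7939 of all 16083 genes. Of the 48, 36 were lower by 0.2 or more on the log2 scale (22% of all genes). Only 2 members were higher by that much (20.7% of all genes). The median log2 difference was -0.28 for the members and 0.00 for all genes. KNG1 read 11.1, 8.37 and 4.86 CPM from the low to the high dose, a log2 difference of -1.18, and ITIH1 read 14, 11 and 6.76, a difference of -1.04. HPX gave -0.67, FGG -0.64, SERPINA7 -0.63, HP -0.61, CFB and FGA -0.55, ALB -0.35 and SERPINA1 -0.36. AMBP read 927, 842 and 1174, a difference of 0.34, and C8G gave 0.78 at 0.933 to 1.65 CPM.

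The medium dose was described by its group mean. Among the members whose mean was lower at high than at low, the medium mean lay between the other doses in 39 of 46 for Palmul-tang, 31 of 45 for Sibjeondaebo-tang, 25 of 47 for Samul-tang and 36 of 48 for Sagunja-tang. In Samul-tang the medium mean was at or above the low mean in 22 of 47. Its medium libraries differed: SERPINA1 read 15577 and 10355 CPM, AFP 17515 and 14588 and TTR 258 and 197, the first value being replicate 2. Differences between neighbouring doses were not tested.

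Against vehicle the pattern was mixed, and these comparisons share the 3 vehicle libraries and cannot be told apart from the library set. At the high dose Palmul-tang gave 11 higher and 20 lower members (16.3% and 15.6% of all genes, 31.8% together), Sibjeondaebo-tang 12 and 13 (19.3% and 16.7%, 36.0% together) and Samul-tang 6 and 7 (9.82% and 8.69%, 18.5% together). At the medium dose the counts were 10 higher and 4 lower for Palmul-tang (11.6% and 10.8%, 22.3% together), 15 and 5 for Sibjeondaebo-tang (15.3% and 14.8%, 30.2% together) and 19 and 0 for Samul-tang (10.3% and 9.57%, 19.8% together). At the low dose they were 17 and 3 (11.5% and 11.7%, 23.2% together), 17 and 2 (11.5% and 11.5%, 23.0% together) and 16 and 0 (6.47% and 4.79%, 11.3% together). In both Samul-tang comparisons with 0 lower members, 1 member was lower at an unadjusted p under 0.05 and DESeq2 gave 0. The higher counts of Sibjeondaebo-tang and Samul-tang at the high dose are near the shares of all genes. At the medium and low doses the lower counts of Palmul-tang and Sibjeondaebo-tang did not exceed those shares. The median log2 fold changes of the members at the low dose were 0.08, 0.09 and 0.14 in Palmul-tang, Sibjeondaebo-tang and Samul-tang, and at the high dose -0.08, 0.01 and 0.00, with all genes between -0.01 and 0.00. Samul-tang medium gave 8 calls without replicate 2, 29 without replicate 3 and 4 when its groups were fitted alone. Samul-tang low gave 7 without its replicate 2, 10 without its replicate 3 and 9 without vehicle replicate 2, and Palmul-tang low gave 12 without vehicle replicate 2 and 13 without its own replicate 3.

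CP, ceruloplasmin, the copper-carrying ferroxidase, lay above vehicle at every dose while its difference between the high and low dose did not pass. Vehicle read 238, 232 and 255 CPM. Palmul-tang read 356, 361 and 358 at low, 389, 400.4 and 413 at medium and 379, 392 and 356 at high, Sibjeondaebo-tang 369, 349 and 365 at low, 407, 407.5 and 419.6 at medium and 366, 373 and 389.5 at high, and Samul-tang 344 and 364 at low, 392 and 341 at medium and 349 and 360.2 at high. No treated library overlapped vehicle. The log2 fold changes against vehicle from low to high were 0.56, 0.73 and 0.63 in Palmul-tang, 0.58, 0.76 and 0.65 in Sibjeondaebo-tang and 0.55, 0.60 and 0.55 in Samul-tang, with SE between 0.0497 and 0.0549. F11 read 40.6, 39.2 and 43.7 in vehicle, and lay at 0.67, 0.39 and 0.42 above it at the high doses, with all treated libraries higher. F5 gave 0.33, 0.41 and 0.33, SERPINA3 0.47, 0.57 and 0.44, SERPINA1 0.32, 0.44 and 0.33, and C3 0.28, 0.33 and 0.24 at those doses, each called higher. The SERPINA1 call was lost in Palmul-tang without high replicate 2 (adjusted p = 0.0673), and in Samul-tang without high replicate 2 (0.256) or any 1 vehicle library (0.0504 to 0.0615).

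On the other side, HPX read 32.4, 31.7 and 30.1 CPM in vehicle, 20.7, 19.6 and 22.4 at the high dose of Palmul-tang, 23.5, 22.3 and 21.7 in Sibjeondaebo-tang and 25.4 and 21.4 in Samul-tang, and A1BG read 20.6, 20.7 and 18.7 in vehicle, 14.6, 13.2 and 12.2 at the high dose of Palmul-tang, 13.7, 15.8 and 13.8 in Sibjeondaebo-tang and 14.7 and 14.5 in Samul-tang. No high-dose library overlapped vehicle for either gene. The low-dose libraries of Palmul-tang and Sibjeondaebo-tang also all lay below vehicle. HPX read 27.4, 24.8 and 25.9 at low in Palmul-tang, 25.7, 26.3 and 25.0 in Sibjeondaebo-tang and 30.6 and 28.5 in Samul-tang. A1BG read 15.7, 17.8 and 16.1 at low in Palmul-tang, 17.1, 15.8 and 18.2 in Sibjeondaebo-tang and 16.7 and 18.7 in Samul-tang. HPX gave -0.59 (SE 0.0797, adjusted p = 1.18e-06), -0.47 (SE 0.0791, adjusted p = 2.7e-05) and -0.42 (SE 0.0868, adjusted p = 0.000897), the last lost without Samul-tang high replicate 3 (adjusted p = 0.069), and A1BG gave -0.58, -0.45 and -0.45. KNG1 gave -1.10, -0.79 and -0.76, ALB -0.40, -0.34 and -0.29, and VTN and CFB were likewise called lower at the high dose of each formula, VTN in Sibjeondaebo-tang not without high replicate 2 (adjusted p = 0.0847). At the low dose ALB gave -0.09, -0.04 and 0.01, none of which passed.

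**Figure D5:**
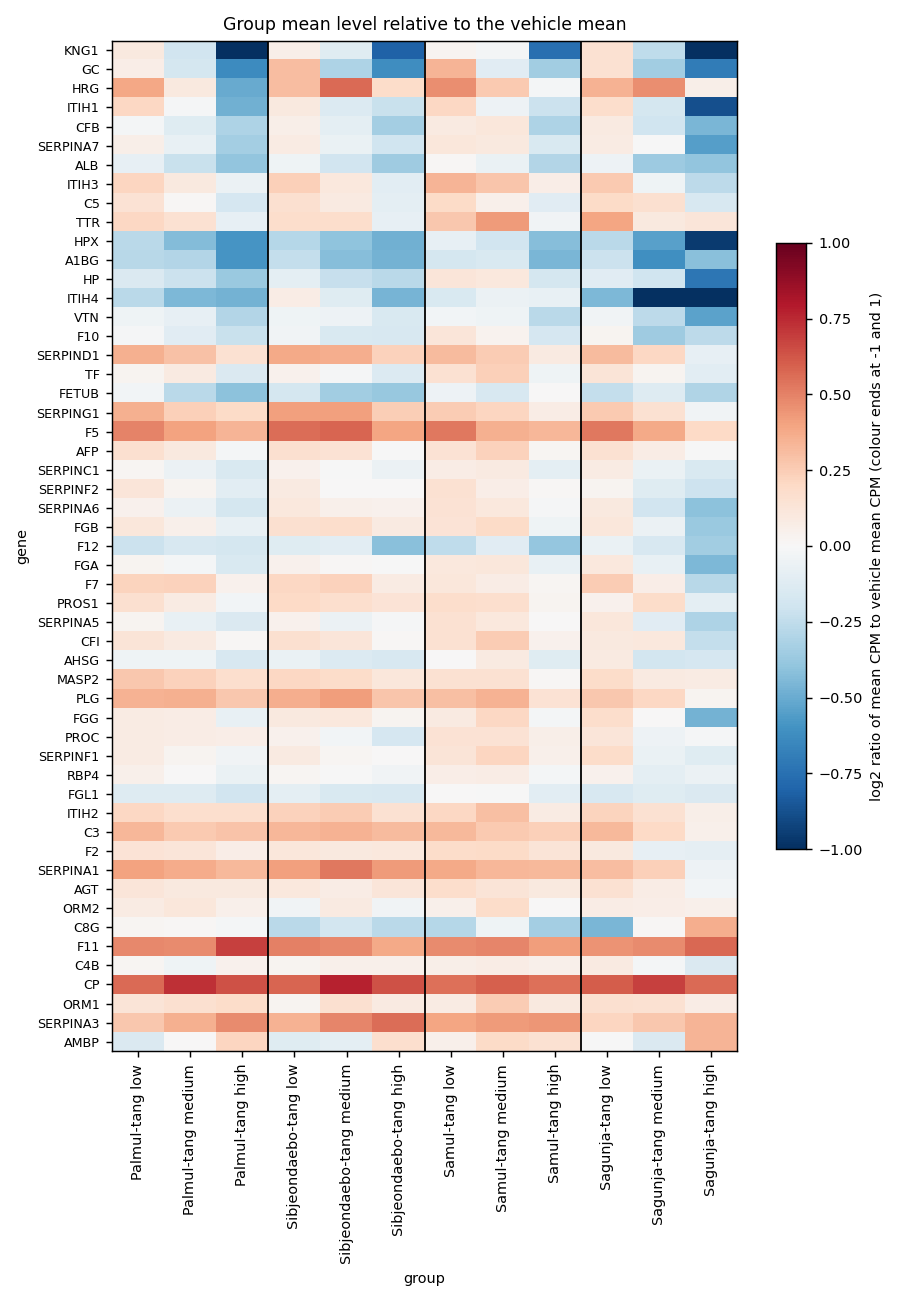
Log2 ratio of the mean CPM of each treated group to the vehicle mean (colour, ending at -1 and 1) for the 53 genes (rows, ordered by the average high-low difference) in 12 groups (columns). CP, F11, F5, SERPINA1, SERPINA3 and C3 are above vehicle in the replicated groups, and KNG1 is lowest at the high doses.

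At matched doses of Sibjeondaebo-tang and Palmul-tang members were called at the high dose and at no other. At the high dose 8 were higher in Sibjeondaebo-tang, against 1.75% of all genes. The 2 lower members stand against 4.72%, which is near the share of all genes. The median was 0.06 for the members against 0.03 for all genes. KNG1 differed by 0.30 (SE 0.0923, adjusted p = 0.0441), ITIH1 by 0.27 (SE 0.0839, adjusted p = 0.0486), SERPINA6 by 0.24 (SE 0.0553, adjusted p = 0.00508), and PROS1, FGB, FGA, VTN and SERPINA5 by 0.18, 0.18, 0.17, 0.16 and 0.15. KNG1 read 4.4, 4.68 and 5.09 CPM in Palmul-tang and 5.34, 5.65 and 6.13 in Sibjeondaebo-tang, and its call was lost in 10 alternatives (adjusted p up to 0.291). F11 gave -0.28 (SE 0.054, adjusted p = 0.000721) and PROC -0.22 (SE 0.0535, adjusted p = 0.00829). PROC read 65.6, 67 and 60.1 CPM in Palmul-tang and 56.6, 54.8 and 52.4 in Sibjeondaebo-tang, which did not overlap. Median-ratio scaling left 3 higher and 2 lower members, and moved the share of higher among all called genes from 27.1% to 15.0%. The count of 10 fell to 3 without the filter on low counts and with the groups fitted alone. It fell to 2 without Palmul-tang high replicate 1 or Sibjeondaebo-tang high replicate 3, to 4 without Palmul-tang high replicate 2 or Sibjeondaebo-tang high replicate 1 and to 6 without Palmul-tang high replicate 3. F11 kept its call under all alternatives tried. At the medium dose 0 members were called (0.0311% of all genes), 2 were higher at an unadjusted p under 0.05 and DESeq2 gave 0, with values between -0.19 for C8G and 0.47 for HRG. At the low dose 0 were called among members and all genes, none reached an unadjusted p under 0.05 and DESeq2 gave 0. There, 50 of 53 members lay within 0.2 on the log2 scale.

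Genes that work with these products were taken from 5 lists, again for the average high against low dose, in which 10.6% of all genes were called lower and 11.8% higher. Of 33 tested among 43 other plasma protein genes, 15 fell and 2 rose. HAMP, the iron hormone hepcidin, gave -2.21, C4BPA -0.42 and C8A -0.29. MST1 gave -0.36 on average, with -0.81 (edgeR adjusted p = 2.47e-13) in Sibjeondaebo-tang, -0.12 (adjusted p = 0.15) in Palmul-tang and -0.16 (adjusted p = 0.26) in Samul-tang. Apolipoproteins gave 4 lower and 2 higher of 13, the higher count being near the share of all genes, with APOH at -0.25. APOA4 gave 0.32 on average, with 0.68 (SE 0.133, adjusted p = 0.000376) in Sibjeondaebo-tang, 0.18 (adjusted p = 0.515) in Palmul-tang and 0.10 (adjusted p = 0.912) in Samul-tang. Of 30 liver transcription factors 12 fell, and 3 rose, which is near the share of all genes: the bile acid receptor NR1H4 gave -0.29, CEBPA -0.27 and FOXA1 -0.17, whereas CEBPB gave 0.23, CEBPD 0.21 and HNF4A 0.10. The HNF4A average was made up of 0.19 in Sibjeondaebo-tang, 0.01 in Palmul-tang and 0.08 in Samul-tang. Of 15 acute-phase signalling genes 4 fell and 2 rose, the latter near the share of all genes, with the receptors IL6R at 0.24 and OSMR at 0.12 higher, and IL1RN at -0.23 and STAT3 at -0.07 lower. Of 40 secretory pathway genes 4 fell and 6 rose, both near the shares of all genes: FURIN, which cuts proproteins, gave -0.33 and GGCX, the vitamin K-dependent carboxylase of clotting factors, -0.16, and SSR1 and SSR3 of the translocon gave 0.11 each.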

How the data were processed

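RNA of HepG2 cells was sequenced in 30 libraries of 13 groups. Per the submitters' processing notes, the authors' tools included RSEM 1.3.3, STAR 2.7.3a, Trim Galore 0.6.5 and FastQC 0.11.9. The authors deposited RSEM expected counts per gene, which are estimates: 8.56% of values were not whole, and these expected counts were rounded before testing. A further 240 columns of per-sample values in the deposited file were not used. Libraries held 21570416 to 37707232 expected counts, and their number per group limits the precision more than depth does.

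Genes were filtered with a minimum count of 10, which left 16083, scaled by TMM and tested with edgeR 4.0.16's quasi-likelihood test over the 27 libraries of groups with at least 2 libraries, in R 4.3.3. P-values were adjusted by the Benjamini-Hochberg method over all genes, and the threshold was 0.05. Each standard error was taken from the log2 fold change and its F statistic. Sagunja-tang, with 1 library a dose, was described without a test. CPM values use TMM-scaled library sizes. The scripts were tested on simulated data.

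The 53 members and all gene lists were chosen with earlier results of these data known. The genes given in full are ALB, AFP, TTR, SERPINA1 and FGB, and up to 8 in each direction with the largest average high-low change at a mean log2 CPM of at least 0, up to 4 between Sibjeondaebo-tang and Palmul-tang at the high dose, and up to 4 against vehicle. Alternatives were DESeq2 1.42.0, median-ratio factors, no filter, the compared groups alone, a replicate block and leaving out each library; a GC and length offset and the removal of 3 libraries were added after seeing the data. Some genes of the marker and companion lists are not reported here by name.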

Additional observations from a re-analysis of the deposited data

Results flagged for a closer look

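The dose response of F11 differed between Sibjeondaebo-tang and Palmul-tang by an interaction term of -0.31 on the log2 scale (SE 0.0759, edgeR adjusted p = 0.0224). All 3 high-dose libraries of Palmul-tang lay above its low-dose libraries, and all 3 of Sibjeondaebo-tang lay below theirs. Over all alternatives the value ran from -0.36 to -0.29 and the adjusted p from 0.00357 to 0.0709.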

How the results depend on the processing

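No direction reversed among the results recomputed. The average high-low count of 34 members ran from 29 to 35 when single libraries were left out. Samul-tang medium against vehicle gave 4 members with its groups fitted alone, against 19, and 8 to 29 without single libraries. Sibjeondaebo-tang high against low gave 24 with its groups fitted alone, against 15. Samul-tang high against low gave 15 with a GC and length offset, chosen after seeing the data, against 8, and 3 to 4 without single libraries. Sibjeondaebo-tang against Palmul-tang at the high dose gave 5 with median-ratio factors, 3 without the filter and 3 with the groups fitted alone, against 10, and 2 to 7 without single libraries. Without single libraries, Palmul-tang low against vehicle gave 12 to 18 (main value 20), Samul-tang low against vehicle 7 to 14 (16), Palmul-tang high against low 16 to 19 (25) and the F11 interaction 0 to 1 (1). The cause of these changes was not tested, other than that leaving out a library leaves fewer samples.

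Over all tested genes, deviations of same-numbered libraries correlated between -0.17 and 0.152, and those of differently numbered libraries between -0.176 and 0.176. Such correlations cannot exclude a block shared by replicate number for single genes. AHSG was highest in replicate 1 at every dose of Palmul-tang and Sibjeondaebo-tang, with 1734.6, 1649.8 and 1500.3 CPM in Sibjeondaebo-tang high. FGL1 was also highest in replicate 1 at each of these doses, with 222.1, 219.2 and 213.7 CPM in Sibjeondaebo-tang high. How many further members show this order was not counted, and the main test used no pairing. With a replicate block 267 of 270 gene calls were kept and no count moved by over 1.5 times; the calls lost were FGG in the average of high against low (-0.10, adjusted p = 0.0508), FETUB in Palmul-tang high against vehicle (adjusted p = 0.0551) and TTR in Palmul-tang low against vehicle (adjusted p = 0.0608). The small groups, not the depth, limit these results, except for GC, HRG, ITIH4 and C8G, which had 10 to 22 counts in their lowest libraries.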
